A study of Mus musculus with 12 samples.

Results

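The ID proteins, E proteins and TCF/LEF factors are transcription regulators of T cell development, and their transcripts were followed across dexamethasone (Dex), interleukin-9 (IL-9) and CCL1 treatment of the mouse line BW5147, derived from a thymic T cell lymphoma. All probe sets (groups of oligonucleotides that report 1 transcript on an Affymetrix array) whose platform annotation gave a single symbol equal to Id1, Id2, Id3, Tcf3, Tcf4, Tcf12, Tcf7 or Lef1 were taken. They numbered 17 of 22626 probe sets and covered 7 of the 8 genes, among the 12393 genes named by a single symbol. No probe set was named Tcf7 in that annotation, so Tcf7 was not analysed here. The 6 groups, of 2 arrays each and 12 in all, were Dex with CCL1, Dex with IL-9, Dex alone, CCL1 alone, IL-9 alone and unstimulated cells. Dex, a synthetic glucocorticoid, was given at 100 ng/ml, and IL-9, a T cell cytokine, and CCL1, a chemokine that binds the receptor Ccr8, at 100 U/ml, each for 8 h. All groups were the same line, a single tumour line grown in serum, so none of them shows normal thymocytes.

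E proteins are basic helix-loop-helix factors, encoded by Tcf3 (E2A), Tcf12 (HEB) and Tcf4 (E2-2), that bind E-box DNA as dimers and drive thymocyte genes. ID proteins have the helix-loop-helix but no DNA-binding basic region, so they pair with E proteins and keep them off DNA. TCF-1 and LEF-1, the products of Tcf7 and Lef1, are the DNA-binding partners of beta-catenin in the Wnt pathway and are needed at early steps of T cell development.

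Id2 and Lef1 carry the differences described below, and the DNA just before the start of each is shown for the E-box that E proteins bind. The windows hold the 250 bases before the annotated start, from RefSeq on GRCm38.p6. Id2 lies at chr12:25096093-25096342, minus strand, and Lef1 at chr3:131110047-131110296, plus strand, the most upstream of 4 Lef1 starts in that table. Both are written 5′ to 3′, with E-box matches (CANNTG, which reads the same on both strands) in capitals.
Id2: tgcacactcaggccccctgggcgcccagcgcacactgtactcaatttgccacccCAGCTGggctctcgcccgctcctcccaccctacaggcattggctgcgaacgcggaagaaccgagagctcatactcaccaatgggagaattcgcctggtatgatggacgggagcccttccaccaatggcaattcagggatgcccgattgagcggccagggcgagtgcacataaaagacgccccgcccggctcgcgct
Lef1: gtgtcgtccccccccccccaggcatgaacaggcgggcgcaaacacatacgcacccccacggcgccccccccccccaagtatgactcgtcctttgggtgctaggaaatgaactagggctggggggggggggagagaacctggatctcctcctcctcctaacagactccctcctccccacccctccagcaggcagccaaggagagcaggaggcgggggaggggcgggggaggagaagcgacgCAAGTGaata
The Id2 window held 1 E-box, CAGCTG (-196 to -191, counted from the start). The Lef1 window held 1, CAAGTG, at -10 to -5. Windows of Tcf3, Tcf12 and Tcf7 held 1 each and that of Id3 none. No window for Id1 was matched, and Tcf4 is not shown. A CANNTG match was present in 66.2% of all 32851 such windows and CAGCTG in 13.0%, so a single match is common. Searches on both strands found no match in the Id2 and Lef1 windows to CTTTGA (a TCF/LEF core, 13.8% of all windows), AGAACA (a glucocorticoid receptor half-site, 16.1%), TTCNNNGAA (a STAT site, 7.02%), CCGGAAG (an ETS site, 6.91%) or TGACGTCA (a CRE, 1.55%). These matches describe letters, not binding.

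The values are MAS5 signals on a linear scale, and fitted differences are on the scale of log2(signal + 16), which understates changes of low signals. Probe sets of different sequence have different brightness, so levels are compared between groups within a probe set and not between probe sets. Arrays read whole cultures, so fewer cells of a type and less RNA per cell cannot be told apart. The tests were fitted on the 11 arrays of 1 table. The array CCL1 2 was on another array type and deposited in a separate table, so its levels are descriptive and CCL1 alone had 1 array in the tests. Nothing in the labels says that the arrays of a group came from separate cultures, and p-values measure only the spread between these arrays. T lineage markers were present (summed signal of 8 genes 4334 to 5873, although Cd5 was at 7.01 or less), against 10.9 to 38.5 for 5 B lineage, 24.8 to 43.3 for 6 myeloid and 9.3 to 40.1 for 5 fibroblast and epithelial genes. Within the T lineage sum Ptprc, which is not confined to T cells, had 1510 to 3222, Thy1 878 to 1525 and Cd3g 531 to 661. The sums span different probe sets and numbers of genes and are only a rough guide. The glucocorticoid target Tsc22d3, which encodes GILZ, had signals of 347 in unstimulated 1, 230 in IL-9 1 and 330 in CCL1 1, against 109, 58.7 and 70.8 in the arrays of these groups numbered 2. It lay between 260 and 422 in the arrays with Dex, so the no-Dex arrays numbered 1 stood near or at the level of Dex arrays, and effects are therefore also given number by number. Dex 2 stood apart too, with a signal of 1309 for Ncl (nucleolin) against 2057 to 2601 in the other 11 arrays.

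Of the 17 probe sets, 10 passed the filter on low values, set at percentile 40 of the probe sets' average log2 values, which equals a signal of 6.32. They were the 3 probe sets each of Id2 and Tcf3, both of Tcf12, and the single ones of Id3 and Lef1. Just inside the filter lay Id2 1453596_at, with a median signal of 6.75. Just outside it lay Id1 1425895_a_at, with a median of 5.69 and a range from 0.444 in Dex+IL-9 1 to 16.9 in unstimulated 1. All 6 probe sets of Tcf4 were below it, with medians from 0.314 to 2.21 and no value above 9.61 in any array. E-protein signal in these cells was thus measured through Tcf3 and Tcf12, and ID signal through Id2 and, at low signals, Id3.

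**Figure D1:**
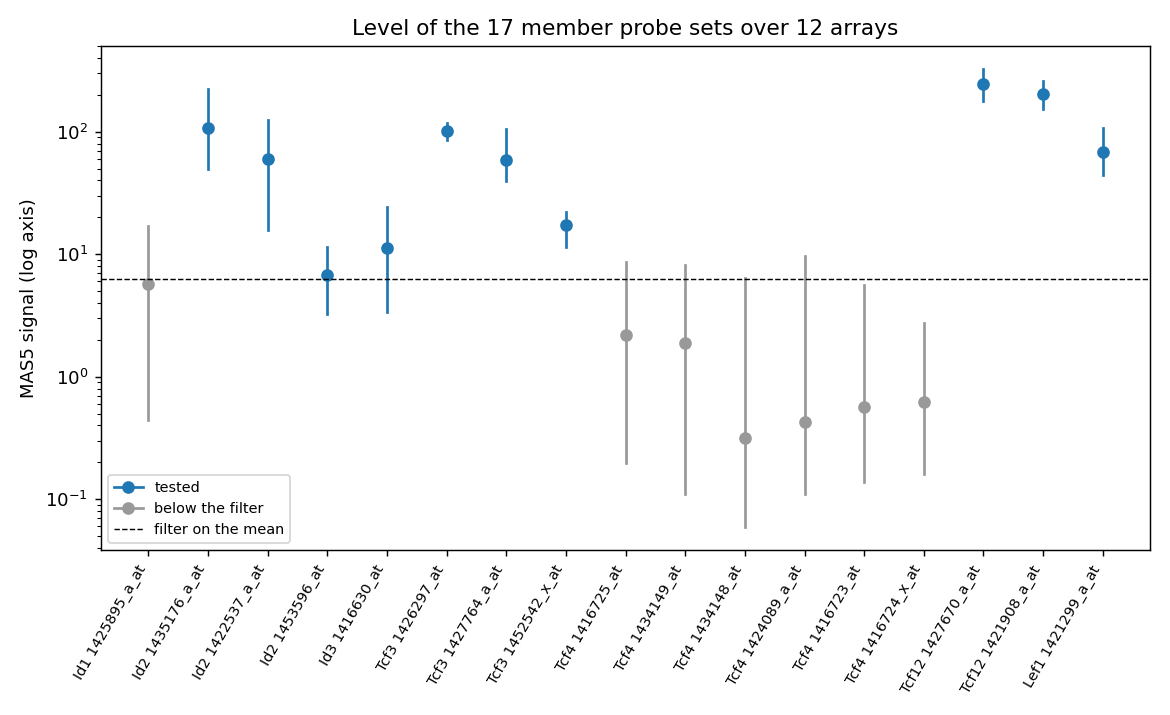
Signal of each of the 17 probe sets on a log axis, with the median over 12 arrays as a point and the lowest and highest array as a line; the dashed line is the filter at 6.32. Id1 and the 6 Tcf4 probe sets have medians under the filter, and brightness is not comparable between probe sets.

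Id2 had its lowest signals with Dex alone and higher ones whenever IL-9 or CCL1 was present. On its probe set with the highest mean, 1435176_a_at, signals were 154 and 136 with Dex and CCL1, 145 and 110.3 with Dex and IL-9, and 54.4 and 49.4 with Dex alone. Without Dex they were 99.6 and 224 with CCL1, the second of these on the other array type, 103 and 112 with IL-9, and 77.5 and 95.5 in unstimulated cells. Both arrays of each cytokine group thus lay above both of its control group, and both Dex arrays lay below the other 10. The probe set 1422537_a_at had the same order of groups around Dex. Its signals were 50.4 and 77.4 with Dex and CCL1, 108 and 60.4 with Dex and IL-9, and 15.8 and 28.6 with Dex alone. They were 70.3 and 125 with CCL1, 91.0 and 59.2 with IL-9, and 35.3 and 53.3 in unstimulated cells, and again no cytokine array overlapped its controls. Such separation upward was found in 13.8% of all tested probe sets for CCL1 and 13.7% for IL-9 added to Dex, and in 14.5% and 16% without Dex. Of all 13575 tested probe sets 1.08% had both Dex arrays below the other 10, a count made after these values were seen. Among the cytokine groups on 1435176_a_at, Dex with CCL1 lay above IL-9 alone, while the other pairs overlapped. The share of probe sets with that order was not counted, and these 2 groups differ in both Dex and cytokine. On 1422537_a_at all 4 cytokine groups overlapped. The third Id2 probe set, 1453596_at, ranged from 3.25 to 11.4 and did not follow the other 2 closely (Pearson r of 0.247 and 0.427 over 11 arrays, against 0.804 between the first and second).

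**Figure D2:**
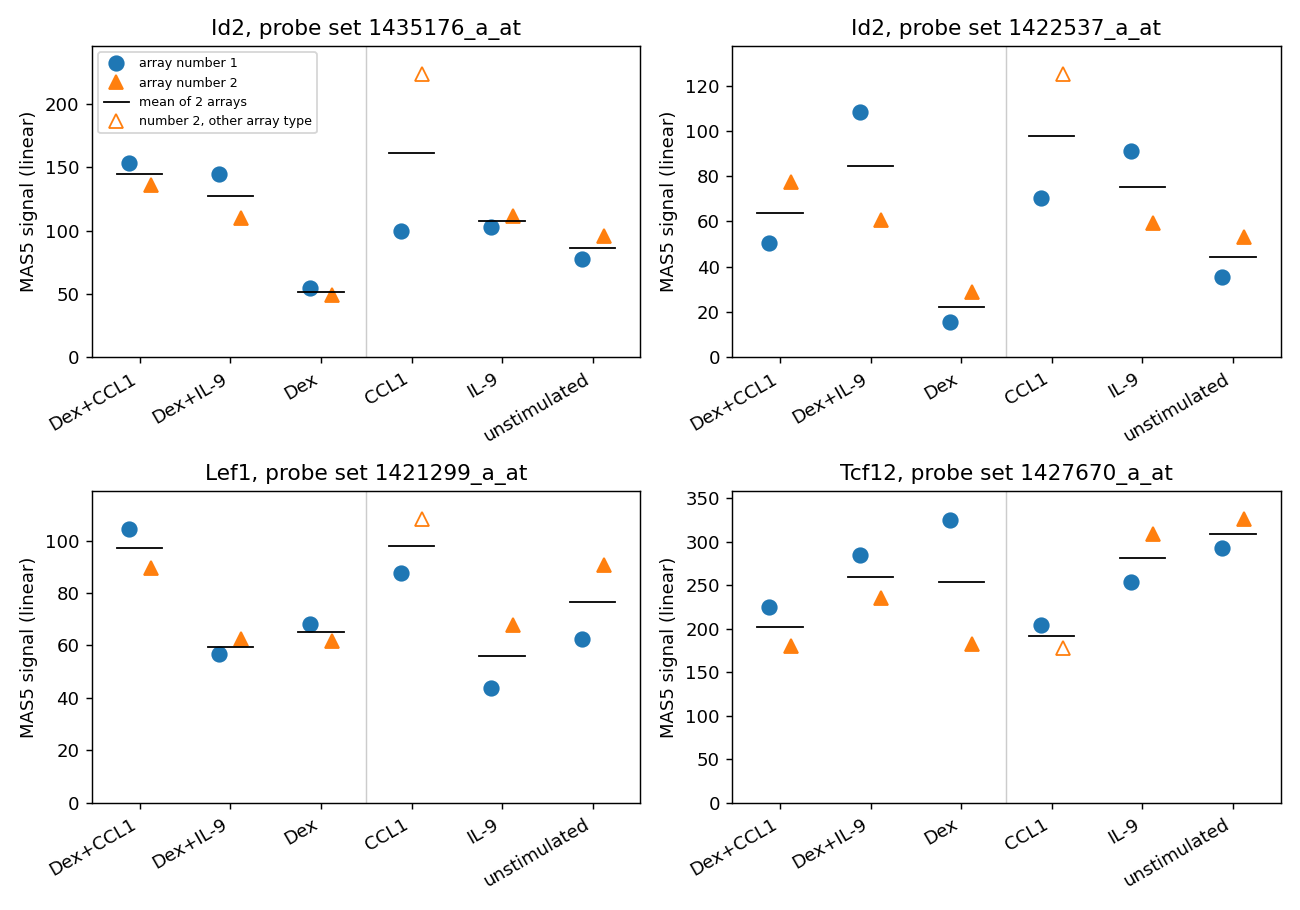
MAS5 signal (linear axis from 0) of 2 Id2 probe sets, Lef1 and the first Tcf12 probe set in each array; circles are arrays numbered 1, triangles arrays numbered 2, the open triangle the array on the other type, and bars the mean of 2 arrays. Both Id2 panels have their lowest points in Dex alone (49.4 and 54.4, and 15.8 and 28.6), and the Lef1 panel has all 4 CCL1 arrays (87.8 to 108) above all 4 IL-9 arrays (43.9 to 67.8).

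In the fit over all probe sets, with no block for array number, none of these Id2 differences passed an adjusted p of 0.05. With CCL1 added to Dex, 1435176_a_at differed by 1.24 log2 (SE 0.18, limma adjusted p = 0.180) and had the rank 2 of 13575 by unadjusted p. Probe set 1422537_a_at differed by 1.07 (SE 0.30, adjusted p = 0.683). With IL-9 added to Dex the differences were 1.07 (SE 0.18, adjusted p = 0.126) and 1.37 (SE 0.30, adjusted p = 0.493), against the same Dex arrays. In these comparisons 1 probe set (0.00737%) and 3 (0.0221%) of all were called by limma, and 0 of 10 members. At an unadjusted p under 0.05 these 2 Id2 probe sets were the members higher in both, 2 of 10 each, where 2.78% and 2.74% of all probe sets were higher at that p. With array number as a block within each Dex condition, 1435176_a_at passed for CCL1 added to Dex (1.24, adjusted p = 0.0496) and not for IL-9 added to Dex (1.07, adjusted p = 0.0520). All 4 pairs of groups that share a Dex condition had a correlation of same-numbered deviations above 0.1 (0.181 to 0.307). Leaving out Dex 1 gave 1.30 (adjusted p = 0.00749) for CCL1 and 1.12 (adjusted p = 0.0111) for IL-9, with 528 and 668 calls over all probe sets. The Dex group was then Dex 2 alone, the array that stood apart, and was assumed to vary like the other groups. Without Dex 2 the values were 1.19 (adjusted p = 0.457) and 1.02 (adjusted p = 0.362), so the sizes were alike without either Dex array.

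Without Dex the Id2 differences were smaller in the fit, which holds CCL1 1 as its one array of CCL1 alone, and the differences between the conditions were not called. For CCL1 against unstimulated cells, on 1 CCL1 array, neither probe set reached an unadjusted p of 0.1, and limma called no probe set (0.00%), with 446 unadjusted p-values below 0.05. For IL-9 the probe set 1422537_a_at differed by 0.59 (SE 0.30, adjusted p = 0.996), where 3 probe sets (0.0221%) were called, and by 0.37 without unstimulated 1 and 0.33 without IL-9 1. The interaction with Dex for 1435176_a_at was 1.06 (SE 0.29, adjusted p = 0.997) for CCL1 and 0.80 (SE 0.26, adjusted p = 1.00) for IL-9. With the array CCL1 2 added, the CCL1 interaction was 0.54 (adjusted p = 0.995). No probe set (0.00%) passed either interaction in limma, and unadjusted p-values below 0.05 numbered 390 for CCL1 and 215 for IL-9. Averaged over the Dex conditions, 1435176_a_at differed by 0.71 (SE 0.15, adjusted p = 0.361) with CCL1 and by 0.67 (SE 0.13, adjusted p = 0.128) with IL-9, the second of which passed with the block within Dex condition (adjusted p = 0.0461). In the CCL1 average 1 probe set (0.00737%) was called and in the IL-9 average 13 (0.0958%), again with 0 of 10 members.

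Number by number, each cytokine array was set against the control array of the same number and Dex condition. For CCL1, 1435176_a_at differed by 1.27 and 1.22 with Dex and by 0.31 and 1.10 without it, in the order of numbers 1 and 2. For IL-9 it differed by 1.19 and 0.95 with Dex and by 0.35 and 0.20 without it. All 4 differences were positive for either cytokine. The same held for 1422537_a_at, at 1.06, 1.07, 0.75 and 1.02 for CCL1 (mean 0.98 ± 0.15, SD, n = 4) and at 1.97, 0.78, 1.06 and 0.12 for IL-9 (mean 0.98 ± 0.77, SD, n = 4). The IL-9 difference was thus smallest in the no-Dex arrays numbered 2, at 0.20 on 1435176_a_at and 0.12 on 1422537_a_at. In the no-Dex arrays numbered 1 it was 0.35 on 1435176_a_at and 1.06 on 1422537_a_at. Tsc22d3 was low in the first of these pairs and high in the second, and a link with the Id2 difference was not tested. Among all tested probe sets 7.70% had 4 positive CCL1 differences and 8.66% had 4 positive IL-9 differences. Of the 10 members 3 had them for CCL1, namely both Id2 probe sets and Lef1, and 2 for IL-9, both of Id2. The value of CCL1 without Dex in number 2 spans the 2 tables.

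**Figure D3:**
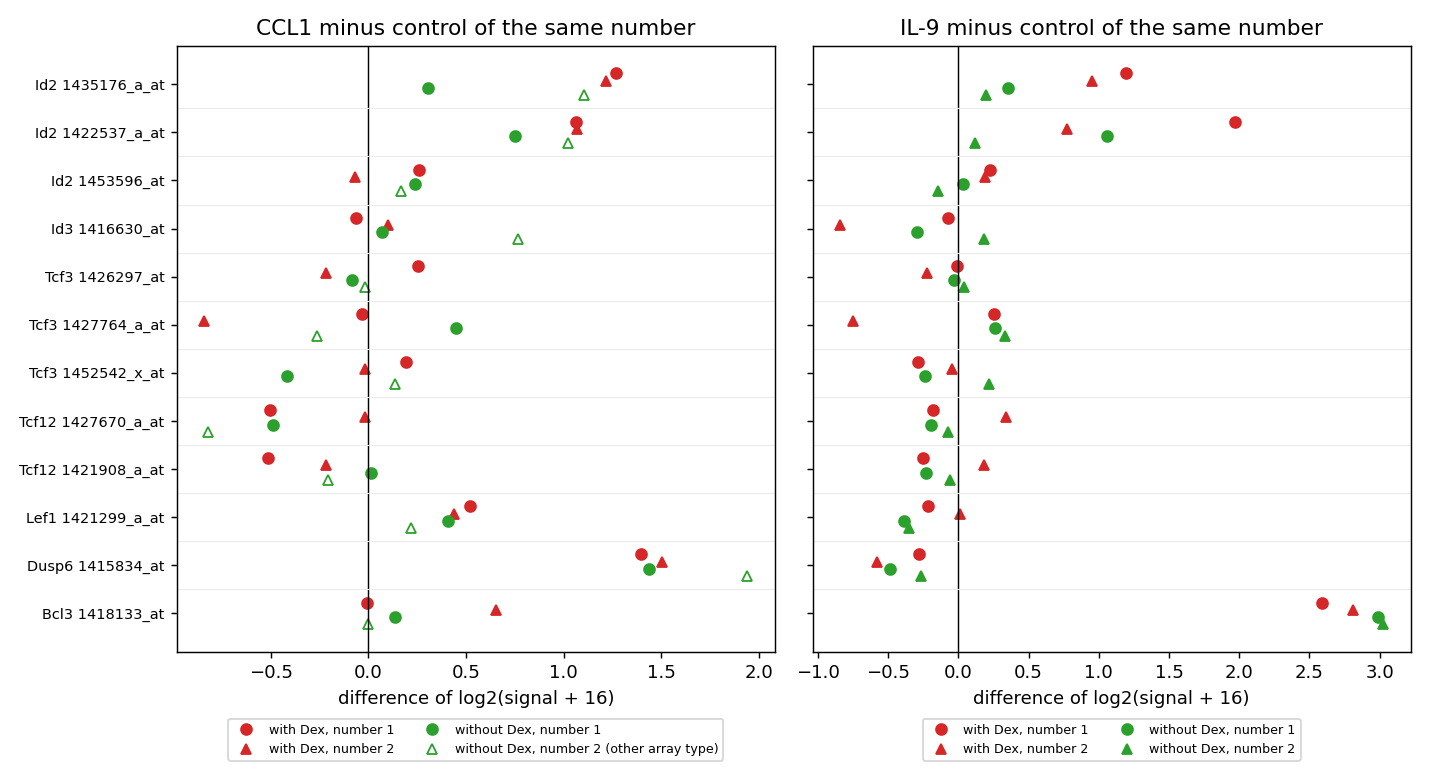
Difference of log2(signal + 16) between each CCL1 array (left) or IL-9 array (right) and the control array of the same number and Dex condition, for the 10 tested probe sets and the CCL1 and IL-9 responders Dusp6 and Bcl3; open triangles use the array on the other type. The first and second Id2 probe sets lie right of 0 in all 8 differences, while Lef1 lies at 0.22 to 0.52 for CCL1 and at -0.39 to 0.01 for IL-9.

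Dex alone was set against unstimulated cells. Id2 signals of 54.4 and 49.4 with Dex, against 77.5 and 95.5 without, gave a difference of -0.59 (SE 0.18, adjusted p = 0.995) for 1435176_a_at, and 1422537_a_at had -0.66 (SE 0.30, adjusted p = 0.995), or -0.42 without Dex 1. Both Dex arrays lay below both unstimulated arrays in 3 of 10 members, all of Id2, and in 11.2% of all tested probe sets. In limma no probe set was called there (0.00%), and 400 had an unadjusted p below 0.05. Both differences were negative in each number: -0.41 and -0.77 for 1435176_a_at, and -0.69 and -0.64 for 1422537_a_at. In number 1 this was so although Tsc22d3 was at 349 in Dex 1 and 347 in unstimulated 1. In the presence of a cytokine the Id2 probe sets did not share a direction for Dex. The first, 1435176_a_at, differed by 0.55 and -0.66 between Dex with CCL1 and CCL1, and by 0.43 and -0.02 between Dex with IL-9 and IL-9. The second, 1422537_a_at, differed by -0.38 and -0.59 with CCL1 and by 0.22 and 0.02 with IL-9. A model with a separate Dex effect for each number called 81 probe sets (0.597%) for Dex in number 2 and 0 (0.00%) in number 1, where 339 had an unadjusted p below 0.05. None of the 10 members was among them.

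Id1 and Id3, the other ID genes, had low signals. Id3 had 10.6 and 21.2 with Dex and CCL1, 10.4 and 3.39 with Dex and IL-9, and 11.9 and 18.7 with Dex. It had 14.4 and 24.2 with CCL1, 7.64 and 10.8 with IL-9, and 12.9 and 7.63 in unstimulated cells. Both arrays of Dex with IL-9 lay below both Dex arrays, as in 20.4% of all tested probe sets, while Dex with CCL1 overlapped Dex. Both CCL1 arrays lay above both unstimulated arrays (14.5% of all tested probe sets) and above both IL-9 arrays (15.2%). The difference of -0.46 (SE 0.24, adjusted p = 0.838) with IL-9 added to Dex was not called, and it was -0.24 without Dex+IL-9 2 and -0.30 without Dex 2. Id1 was between 0.444 and 16.9 and was not tested.

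Among the E proteins, Tcf3 varied little on its probe set with the highest mean. Signals of 1426297_at were 105 and 99.3 with Dex and CCL1, 85.0 and 98.8 with Dex and IL-9, and 85.6 and 118 with Dex. They were 95.3 and 108 with CCL1, 99.1 and 112 with IL-9, and 102 and 109 in unstimulated cells, and the whole range over 12 arrays was 85.0 to 118. Both arrays of Dex with IL-9 lay below those of Dex with CCL1, as in 17.9% of all tested probe sets, but overlapped those of Dex. They also lay below those of IL-9 alone and unstimulated cells, orders whose shares over all probe sets were not counted. The 4 number-by-number differences averaged -0.01 ± 0.20 for CCL1 and -0.06 ± 0.11 for IL-9 (SD, n = 4 each). The second probe set, 1427764_a_at, was wider, from 39.4 to 105, and gave a different picture for Dex. In number 2 it was 39.4 with Dex and CCL1, 43.1 with Dex and IL-9 and 83.3 with Dex, against 64.4, 105 and 80.5 in the arrays without Dex. In number 1 the same groups had 40.5, 53.0 and 41.7 with Dex, against 77.2, 65.6 and 52.2 without it. The fitted Dex difference of this probe set in number 1 was -0.40 (SE 0.22) and was not called. Its fitted Dex difference in number 2 was -0.62 (SE 0.25, adjusted p = 0.429), -1.03 (adjusted p = 0.0219) when Dex 2, the array that stood apart, was left out, and -0.41 without Dex+IL-9 2. Over 11 arrays it correlated with 1426297_at at a Pearson r of 0.567, and the third, 1452542_x_at, at 0.435. The 3 Tcf3 probe sets therefore give no single answer for this gene.

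Tcf12 had its lower signals in CCL1 arrays on its first probe set, without passing the test. Signals of 1427670_a_at were 225 and 180.0 with Dex and CCL1, against 325 and 183 with Dex. They were 205 and 177 with CCL1, against 293 and 325 in unstimulated cells. With Dex the groups overlapped, since Dex 2 was low, and without Dex they did not, as in 18.7% of all tested probe sets for CCL1 below unstimulated cells. The IL-9 groups were at 284 and 235 with Dex and at 254 and 309 without it. All 4 CCL1 and Dex+CCL1 arrays lay below all 4 IL-9 and Dex+IL-9 arrays, as in 2.51% of all tested probe sets. The difference averaged over Dex conditions was -0.41 (SE 0.19, adjusted p = 0.885) for CCL1 against control, or -0.21 (adjusted p = 0.562) without Dex 1, and -0.38 (SE 0.19, adjusted p = 0.999) for CCL1 minus IL-9. The other Tcf12 probe set, 1421908_a_at, had 176 and 152 with Dex and CCL1 and 259 and 180 with Dex (-0.37, SE 0.18, adjusted p = 0.757). That value was -0.12 without Dex 1 and -0.61 without Dex 2. Without Dex it had 212 and 178 with CCL1 and 210.1 and 208 in unstimulated cells, so it did not show the difference in number 1. Its IL-9 arrays, at 177 and 199 without Dex, overlapped those of CCL1. With Dex and IL-9 it had 215 and 206, above Dex with CCL1, an order found in 17.6% of all tested probe sets. Its CCL1 minus IL-9 average was -0.08 (SE 0.14, adjusted p = 0.999), so the order of all 4 arrays was seen on 1427670_a_at only. The fitted Dex difference of 1427670_a_at was 0.14 (SE 0.12, adjusted p = 1.00) in number 1 and -0.53 (SE 0.14, adjusted p = 0.206) in number 2, or -0.35 (adjusted p = 0.326) in number 2 without Dex 2.

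Lef1 had higher signals in the CCL1 arrays than in the IL-9 arrays, without passing the test. Its probe set 1421299_a_at had 105 and 89.5 with Dex and CCL1, 56.6 and 62.5 with Dex and IL-9, and 68.2 and 61.8 with Dex. Without Dex it had 87.8 and 108 with CCL1, 43.9 and 67.8 with IL-9, and 62.3 and 90.6 in unstimulated cells. All 4 arrays with CCL1 lay above all 4 with IL-9, as in 2.56% of tested probe sets, and unstimulated 2 lay among the CCL1 arrays. CCL1 minus IL-9, averaged over Dex conditions, was 0.57 (SE 0.17, adjusted p = 0.539), in a comparison in which 32 probe sets (0.236%) were called and 0 of 10 members. At an unadjusted p under 0.05 Lef1 was the only member of 10 that was higher, where 2.44% of all probe sets were. With CCL1 added to Dex it differed by 0.48 (SE 0.22, adjusted p = 0.748). Number by number the CCL1 differences were 0.52 and 0.44 with Dex and 0.41 and 0.22 without it, and those of IL-9 were -0.21 and 0.01 with Dex and -0.39 and -0.35 without it. Lef1 was also lower in the no-Dex arrays numbered 1 than in those numbered 2 (-0.45, SE 0.15, adjusted p = 0.312), in a comparison with 108 calls (0.796%), 0 of them members. In this comparison Tsc22d3 differed by 1.71 (SE 0.14, adjusted p = 5.75e-05), and the part of this in the Lef1 value was not tested.

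For Id2 the CCL1 minus IL-9 averages were 0.04 (SE 0.15) on 1435176_a_at and -0.18 (SE 0.24) on 1422537_a_at, both with an adjusted p of 0.999, which does not show that the cytokines act alike. The 2 responders taken as a measure of size differed between the cytokines. Dusp6, an ERK phosphatase, had a CCL1 minus IL-9 difference of 1.90 (SE 0.13, adjusted p = 3.88e-05), and Bcl3, an IkB family protein, one of -2.61 (SE 0.17, adjusted p = 3.88e-05).

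The genes whose log2 signals ran most like the members over the 11 arrays were listed as a description, since the arrays share groups and processing. For Id2 they were Cdc73, a subunit of the PAF1 complex (Pearson r 0.908), Srprb (0.866) and Prokr1 (0.849). Lef1 ran with Sytl2 (0.926), Calu (0.900) and Surf4 (0.891). Tcf12 ran with Ncoa1, a nuclear receptor coactivator (0.911), Cep70 (0.911) and Esm1 (0.884). Tcf3 ran with Vdr (0.944), which had signals of at most 15.7, Bak1 (0.900) and Tyk2 (0.889), and Id3 with Psma4 (0.907), Ppdpf (0.893) and Aaas (0.881).

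The surrounding pathways were read from 6 gene lists on 1 probe set per gene. Of 20 E-protein partners and cofactors 11 were measured, and none was called for CCL1 or IL-9. Their medians were -0.14 for the CCL1 average and -0.17 for the IL-9 average, against -0.03 and -0.02 over all genes. Lmo4, a LIM-only adaptor, had 91.8 and 107 with Dex and CCL1, 85.6 and 106 with Dex and IL-9, and 135 and 183 with Dex. Without Dex it had 99.2 and 116 with CCL1, 97.1 and 106 with IL-9, and 150 and 146 in unstimulated cells. No cytokine array reached its controls. Each such separation downward was found in 18.7% of all tested probe sets for CCL1 and 20.4% for IL-9 added to Dex. Without Dex the shares were 18.7% and 19.6%, and the joint order was not counted. The averages of -0.55 (SE 0.15, adjusted p = 0.496) for CCL1 and -0.56 (SE 0.13, adjusted p = 0.219) for IL-9 did not pass, and both use the same control arrays. Hes6, a bHLH factor, had a CCL1 average of -0.58 (adjusted p = 0.798) and Runx1, an E-protein partner in thymocytes, of -0.46 (adjusted p = 0.860). For IL-9, Gfi1 had an average of -0.36 (adjusted p = 0.486) and Bhlhe40 one of 0.41 (adjusted p = 0.516). Of the 11 genes, 2 had a positive average for CCL1 and 3 for IL-9, where 44.2% and 45.7% of all genes did. Both counts rest on the same control arrays.

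Of 20 E-protein targets known in thymocytes 8 were measured. Socs1, a JAK inhibitor, rose with IL-9 (1.17, SE 0.15, adjusted p = 0.0103) and was lower with CCL1 than with IL-9 (-1.71, SE 0.17, adjusted p = 0.00119). It had 15.1 and 7.12 with Dex and CCL1 and 104 and 108 with Dex and IL-9, against 37.8 and 26.1 with Dex. Without Dex it had 23.45 and 23.61 with CCL1 and 86.2 and 68.1 with IL-9, against 29.7 and 31.8 in unstimulated cells. Its CCL1 average against control, -0.54 (SE 0.17, adjusted p = 0.659), was not called. No other member of this list was called for a cytokine. Cxcr4, the CXCL12 receptor, had averages of -0.37 (adjusted p = 0.879) for CCL1 and -0.48 (adjusted p = 0.371) for IL-9, and Cdkn1b, a cyclin-dependent kinase inhibitor, -0.54 (adjusted p = 0.764) for CCL1. Cdkn1a, another such inhibitor, was lower in no-Dex arrays numbered 1 than numbered 2 (-0.85, SE 0.17, adjusted p = 0.0360).

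Among beta-catenin and TLE partners of TCF and LEF factors, 21 of 27 were measured. Tle3, a corepressor that binds TCF and LEF factors, was higher with CCL1 than with IL-9 (0.89, SE 0.15, adjusted p = 0.0473), the only call of the list. Its signals were 288 and 376 with Dex and CCL1 and 282 and 293 with CCL1, against 152 and 169 with Dex and IL-9 and 157 and 152 with IL-9. Its controls, at 158 and 221 with Dex and 174 and 202 unstimulated, lay below the CCL1 arrays. CCL1 arrays lay above their controls in 13.8% of all tested probe sets with Dex and in 14.5% without it. The difference of Tle3 with CCL1 from control was 0.66 (SE 0.15, adjusted p = 0.423). Tle3 and Lef1 both had all 4 CCL1 arrays above all 4 IL-9 arrays, as did 2.56% of all tested probe sets. A link between these genes was not tested. Gsk3b, a kinase that marks beta-catenin for destruction, had a CCL1 average of -0.66 (SE 0.21, adjusted p = 0.643). Of the 20 targets of TCF and LEF factors 12 were measured and none was called for a cytokine. Nkd1, a Wnt feedback inhibitor, had a CCL1 average of -0.68 (adjusted p = 0.496) at signals of 24.3 or less, and Gata3, a T cell transcription factor, an IL-9 average of -0.64 (adjusted p = 0.247). Cd44, an adhesion receptor, had a CCL1 average of 0.37 (adjusted p = 0.906) and was lower in no-Dex arrays numbered 1 than numbered 2 (-0.66, SE 0.13, adjusted p = 0.0426).

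Of 21 genes of the BMP, TGF-beta, ERK and EGR pathways, which induce ID genes, 14 were measured. The list holds inhibitors of these pathways too, among them Dusp6, Smad7, Ski and Skil. Dusp6, the ERK phosphatase and not an inducer, was the only one called, for CCL1 (1.50, SE 0.13, adjusted p = 0.00141). The list's median was 0.13 for CCL1 and -0.08 for IL-9, against -0.03 and -0.02 over all genes. Tgfb1, the ligand TGF-beta 1, had a CCL1 average of 0.50 (adjusted p = 0.879), and Smad3, a TGF-beta signal transducer, an IL-9 average of -0.46 (adjusted p = 0.331). All 6 genes of ID protein turnover were measured and none was called. Cdc27, a subunit of the anaphase-promoting complex, had the smallest p among them, with an IL-9 average of 0.60 (adjusted p = 0.356), and Usp1, the enzyme that deubiquitinates ID proteins, had 0.21 (adjusted p = 0.719).

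**Figure D4:**
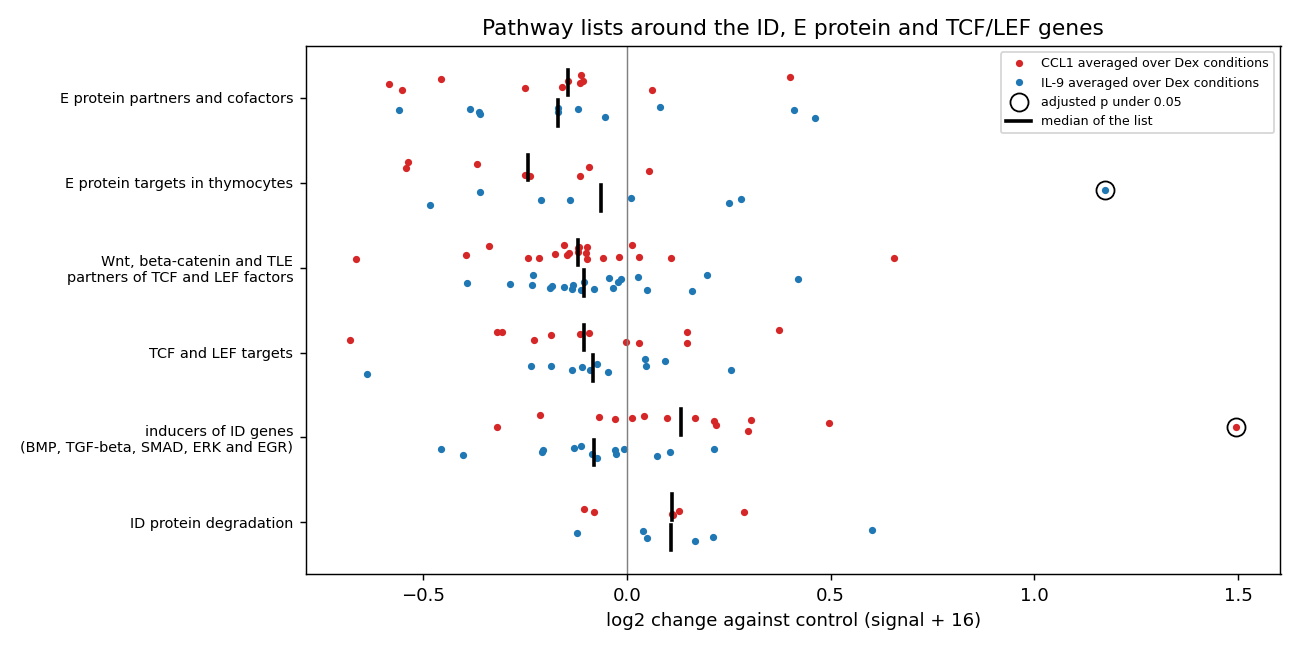
Fitted log2 change against control, averaged over Dex conditions, of each measured gene in 6 lists, for CCL1 and for IL-9; black bars are medians and open circles mark an adjusted p under 0.05. Only Socs1 (IL-9, 1.17) and Dusp6 (CCL1, 1.50) are circled.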

How the data were processed

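Total RNA of 12 samples was hybridised to Affymetrix arrays, per the labels' protocols. The deposited values are MAS5 signal intensities on a linear scale, per the submitters' processing notes, in 1 table of 11 arrays and 1 of 1 array. Their trimmed mean (2% off either end) was 100.0 in every array. The MAS5 version was not stated in the labels. Scaling each array to a common mean hides a change of all genes in 1 direction.

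Both tables were joined by probe set. The 64 controls were dropped, 22626 probe sets stayed, and 13575 passed the filter. Of all probe sets 20393 had 1 symbol, 691 had several and 1606 had none. For 20364 the gene number was found in the GRCm38.p6 gene table, which changed 0 symbols.

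Tests used limma 3.58.1 (R 4.3.3) on log2(signal + 16), with eBayes allowing the variance to follow intensity, and Benjamini-Hochberg adjustment across 13575 probe sets at 0.05. The first model had 1 mean per group over 11 arrays (5 residual, 6.47 prior degrees of freedom). A second had 1 mean per array number and Dex condition plus IL-9 and CCL1 terms. The code was tested on simulated data. The number of arrays limits the precision. Replicates shared 0 identical values, with a median absolute difference of 0.168 to 0.258 log2.

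Named genes were all member probe sets, list genes past the threshold with up to 3 others per list and cytokine average, the 3 genes most like each member, and the responders Dusp6, Bcl3 and Tsc22d3; Ncl was added. Members and lists were chosen with earlier results of these data known. Alternatives were other pseudocounts, filters, normalizations and blocks, no intensity trend, 1 probe set per gene, the array CCL1 2 added and each array left out.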

Additional observations from a re-analysis of the deposited data

How the results depend on the processing

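The 28 member differences at an unadjusted p under 0.1 kept their sign in all 603 values under alternatives, and 9 of these passed the threshold. Of 2078 values for the other 102 member differences, 102 changed sign and 0 passed. The count of called members, 0 in each comparison, was 0 to 1 when 1 array was left out for IL-9 and for CCL1 added to Dex, for the IL-9 average and for Dex in number 2, and 0 in the others. The 1 was Id2 without Dex 1 (IL-9 average 0.70, adjusted p = 0.0254) and, in number 2, Tcf3 without Dex 2. Array numbers were not treated as pairing all arrays, since 5 of 10 pairs of groups had a correlation of deviations above 0.1 (range -0.0051 to 0.307), although all 4 pairs within a Dex condition did. With the replicate number as a block no member was called. With a replicate block within Dex condition, 1 member was called, Id2, for the IL-9 average (adjusted p = 0.0461) and for CCL1 added to Dex (adjusted p = 0.0496). With that block and additive stimuli, chosen after seeing the data, 1 member was called for CCL1 minus IL-9, Lef1, on 11 arrays (0.67, adjusted p = 0.0308) and on 12 (0.63, adjusted p = 0.0117), and 1 for the CCL1 average on 12, Id2 (0.97, adjusted p = 0.0281). Counts over all probe sets moved with the same settings: 13 for the IL-9 average became 142 and 1 for the CCL1 average became 110 with the block, additive stimuli and 12 arrays, and 358 and 66 without Dex 1. The 32 for CCL1 minus IL-9 ranged from 14 to 159, the 81 for Dex in number 2 from 29 to 117 and the 108 for array number from 46 to 216. The 3 for IL-9 added to Dex became 8, the 3 for IL-9 alone 6, the 1 for CCL1 added to Dex 3 and the 0 for Dex alone 1 with the block within Dex condition. CCL1 alone had 0 calls and 1 with a pseudocount of 64, with CCL1 2 added or with 1 probe set per gene. CCL1 added to Dex had 0 without the intensity trend and 0 to 528 with 1 array left out, and IL-9 added to Dex had 2 to 668. Without Dex 1 the interactions had 271 (IL-9) and 101 (CCL1) calls and Dex alone 529. A pseudocount of 64 made differences of low signals smaller by construction, as for Id2 1422537_a_at with IL-9 added to Dex (0.77). Of the 80 number-by-number means under alternatives, 76 moved by less than 1 SD. Comparisons with CCL1 alone could not be fitted without CCL1 1. Low signals limit what can be said of Id1, Id3, Tcf4 and the third Id2 probe set.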
